A study of Mus musculus with 12 samples.

Results

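Genes that mark T cells, B cells and natural killer (NK) cells were followed in microglia, the resident macrophages of the brain, sorted from mouse hippocampus. The list named 41 such genes by symbol, and 39 of them were found on the NanoString immune panel, which measured 545 endogenous genes in all. Klrg1 and Ncr1, receptors of NK cells, had no probe under those names. The mice were Balbc males of 28 days (PND28). In the BDS group (brief daily separation) pups had been taken from the dam for 15 min each day from postnatal day 1 to day 21, and the control group carried the label control with no further description of its handling. Each group held 6 samples, every one from a different litter, and the spread between samples holds differences between animals together with counting and other technical error. The labels name a Percoll gradient and FACS as the isolation steps but not the surface markers of the gate, and no line, Cre driver or transgene is named.

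T cells recognise antigen through a receptor that signals through the CD3 chains and Cd247, with Cd4 or Cd8 as co-receptor and Lck and Zap70 as the first kinases. B cells signal through Cd79a and Cd79b, which are paired with surface immunoglobulin, and NK cells read ligands on other cells through paired lectin-like receptors and kill with perforin and granzymes. In the healthy brain such cells are few, and they lie mainly in vessels, meninges and choroid plexus, while microglia fill the tissue itself.

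A gene was read as above background in a sample where its raw barcode count exceeded the mean plus 2 SD of the 8 negative-control probes of that sample. These limits ran from 15.3 to 21.3 counts in controls and from 18.2 to 21.8 in BDS, and 1 of the 96 negative-probe values itself lay above its limit. The label microglia was checked first. All 8 microglial markers with a probe (Csf1r, Cx3cr1, Itgam, C1qa, C1qb, Tyrobp, Ctss and Runx1) were above background in all 12 samples and together took 29.2% to 33.5% of the endogenous counts in controls and 30.1% to 37.8% in BDS, where BDS 21, BDS 25 and BDS 55 were highest at 37.8%, 37.5% and 36.4%. The 39 lymphocyte probes together took 0.149% to 0.194% in controls and 0.159% to 0.191% in BDS, background included. Total counts were 893936 to 1409376 in controls and 641756 to 1171355 in BDS, and the housekeeping factors of BDS 21, BDS 25 and BDS 55 (0.590, 0.628 and 0.827) were under those of every other sample (0.847 to 1.42). Control 44 stood apart in single genes and is described below with the values it sets.

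Lymphocyte genes were more often below background than the panel at large. Of the 39, 15 (38.5%) were above background in 0 of 12 samples, against 22.0% of all panel genes. A further 6 were above it in 1 to 4 samples and 9 in 5 to 11 samples. The remaining 9 (23.1%) were above it in all 12, against 51.0% of the panel. At least 5 of 12 samples were needed for testing, and 18 genes (46.2%) passed, against 65.5% of the panel. This difference in shares was not tested, and a probe that stays below its limit shows that the transcript was not detectable at this depth, not that it was absent. In bulk samples fewer cells of a type and less RNA per cell cannot be told apart.

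**Figure D1:**
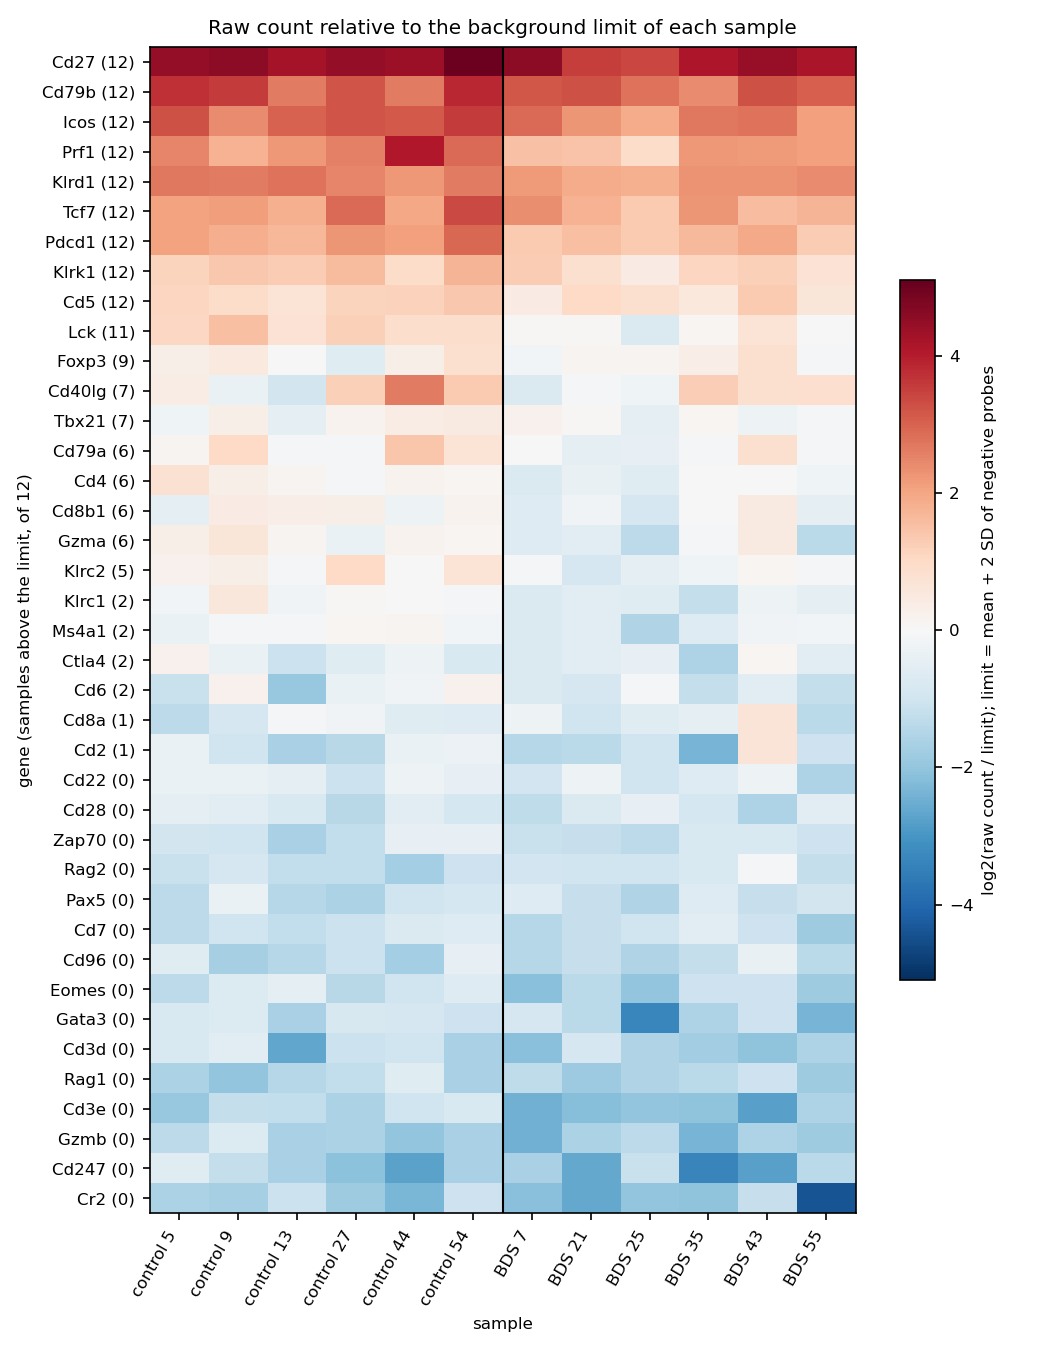
Raw count of each of the 39 lymphocyte genes (rows, ordered by the number of samples above background, given in brackets) divided by the background limit of the sample, on a log2 colour scale, for 6 control and 6 BDS samples (columns). Red cells lie above the limit: Cd27 to Cd5 are red in all 12 samples, and the 15 genes from Cd22 to Cr2 are blue in all 12.

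The invariant chains of the T cell receptor complex stayed at the level of the negative probes. Cd3d, a CD3 chain, had raw counts of 3 to 11 in controls (median 9.5) and 5 to 10 in BDS (median 6.5). Its counts averaged 0.763 times the mean of the negative probes. Cd3e, a second CD3 chain, had 4 to 11 counts in controls and 3 to 7 in BDS, and Cd247, the zeta chain, had 3 to 10 and 2 to 9. No sample of either group reached its limit for any of these chains. In the RefSeq table Cd3d and Cd3e are adjacent genes, and the same holds for Cd8a with Cd8b1 and Cd5 with Cd6.

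Cd4 and Cd8b1, co-receptor genes, lay near the limit, and most other T cell surface genes lay below it. Cd4, the co-receptor of helper T cells, had 20 to 26 raw counts in controls (median 20.5) and 13 to 21 in BDS (median 16.0), and it was above background in 5 controls and 1 BDS sample. After scaling to the housekeeping genes its counts were 14.1 to 30.7 in controls (median 20.0) and 12.2 to 23.7 in BDS (median 21.0), so the order of the group medians differed between raw and scaled counts. Cd8b1, a chain of the co-receptor of cytotoxic T cells, was above background in 4 controls and 2 BDS samples, at 13.0 to 24.0 scaled counts in controls (median 18.2) and 13.1 to 27.1 in BDS (median 19.7). Its partner chain Cd8a was above background in 1 sample, BDS 43, at 32 counts, with 6 to 19 in controls and 8 to 18 in the other BDS samples. Cd2, an adhesion receptor of T and NK cells, was also above background in BDS 43 alone, again at 32 counts, with 4 to 16 in the other 11 samples. Cd6, a scavenger-type receptor, passed the limit in 2 controls. Cd7, Cd28 and Cd96, a surface glycoprotein, the main co-stimulatory receptor and a receptor of T and NK cells, passed it in 0 of 12 samples, with raw counts of 5 to 16.

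Cd27 and Cd5 broke that pattern. Cd27, a co-stimulatory receptor of the TNF receptor family, had the highest counts of the whole list, 341 to 604 in controls (median 402.5) and 210 to 512 in BDS (median 369.0). After scaling it ran from 361.6 to 424.2 in controls (median 386.2) and from 337.4 to 480.1 in BDS (median 367.0), so the groups overlapped. Its controls spread by a coefficient of variation of 6.96%, where counting error alone would give 4.89%. In BDS the spread was 14.7%, with BDS 7 and BDS 55 highest. Cd5, a receptor that dampens antigen receptor signals, stood at 29.6 to 44.5 scaled counts in controls (median 34.6) and 27.2 to 62.8 in BDS (median 40.3), the highest in BDS 21 and BDS 25.

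Among signalling and transcription genes, Zap70 and Gata3 were below background in all 12 samples, at 6 to 15 and 2 to 12 raw counts. Zap70 is the kinase that docks on phosphorylated CD3 chains, and Gata3 is a transcription factor of T cell development and helper type 2 cells. Lck, the kinase that acts before Zap70, was above background in 6 controls and 5 BDS samples, with 32 to 49 raw counts in controls and 12 to 33 in BDS. Tcf7, a transcription factor of early and memory T cells, was above it in all 12 samples at 66.9 to 135.6 scaled counts in controls (median 76.2) and 49.0 to 105.2 in BDS (median 92.5). Control 27 and control 54 were its highest controls and BDS 43 its lowest sample. Foxp3 and Tbx21, the factors of regulatory T cells and of helper type 1 and NK cells, lay close to the limit, with 14 to 36 and 13 to 26 raw counts over all 12 samples. Foxp3 was above it in 5 controls and 4 BDS samples, and Tbx21 in 4 controls and 3 BDS samples. Tbx21 had 13.98 to 25.7 scaled counts in controls (median 18.2) and 13.7 to 32.2 in BDS (median 22.9), with overlapping groups.

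The activation receptors divided in the same way. Icos, a co-stimulatory receptor of activated T cells, had 82.0 to 171.9 scaled counts in controls (median 154.6) and 107.6 to 151.0 in BDS (median 125.8). All 6 BDS samples lay below the control median, but control 9 was the lowest of all 12. Pdcd1, the inhibitory receptor PD-1, had 56.3 to 99.7 in controls (median 75.5) and 51.6 to 89.9 in BDS (median 64.7), with overlapping groups. Ctla4, an inhibitory receptor whose gene lies next to Icos in the RefSeq table, was above background in 1 control and 1 BDS sample at raw counts of 7 to 22. Cd40lg, the ligand by which helper T cells activate B cells, was above background in 4 controls and 3 BDS samples and varied most in the list, from 9.99 to 123.5 scaled counts in controls (median 28.3) and from 12.2 to 50.7 in BDS (median 28.9). Its control coefficient of variation was 106%, against 15.2% from counting error.

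For B cells, the receptor chain Cd79b was above background in all 12 samples, while other defining genes were not. Cd79b had 119.8 to 237.2 scaled counts in controls (median 165.5) and 111.5 to 290.0 in BDS (median 197.0), the highest in BDS 21. Cd79a, its partner chain, was above background in 4 controls and 2 BDS samples, at 15.1 to 52.4 scaled counts in controls (median 20.6) and 20.3 to 28.9 in BDS (median 23.0). Ms4a1, which encodes the surface protein CD20, passed the limit in 2 controls and 0 BDS samples, at 7 to 23 raw counts. Cd22, an inhibitory receptor, Pax5, the transcription factor of B cell identity, and Cr2, a complement receptor, passed it in 0 of 12, at 7 to 17, 6 to 14 and 1 to 9 raw counts. Rag1 and Rag2, adjacent genes for the recombinase that assembles antigen receptors, were also below background in all 12 samples, Rag1 at 4 to 13 raw counts.

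The NK and cytotoxic genes were again of both kinds. Klrd1, which encodes CD94, had 81.5 to 128.8 scaled counts in controls (median 94.1) and 82.0 to 135.4 in BDS (median 107.4). Klrk1, the activating receptor NKG2D, had 38.5 to 49.1 in controls (median 42.2) and 37.8 to 54.3 in BDS (median 43.8), and both genes overlapped between the groups. The control spread of Klrk1 was 9.87%, under the 14.6% that counting error would give at its 34 to 65 control counts. Klrc1 and Klrc2 encode the NKG2 chains that pair with CD94, and passed the limit in 2 and 5 samples. Klrc1 had 9 to 24 raw counts. Klrc2 had 17.97 to 32.5 scaled counts in controls (median 20.4) and 17.0 to 24.2 in BDS (median 19.0). All 4 genes lie close together in the RefSeq table, with Klrd1 next to Klrk1 and 1 protein-coding gene between Klrk1 and Klrc2. The probe sequences were not used here, so cross-hybridization between the related Klrc1 and Klrc2 was not tested.

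Prf1, which encodes perforin, was above background in all 12 samples, at 53.4 to 336.0 scaled counts in controls (median 97.1) and 57.2 to 108.8 in BDS (median 79.8). Gzma, a granzyme, was above background in 5 controls and 1 BDS sample at 12.8 to 23.8 scaled counts in controls (median 21.7) and 9.67 to 22.5 in BDS (median 16.7). The groups overlapped for both genes. Gzmb, a second granzyme, and Eomes, a transcription factor of NK and cytotoxic T cells, were below it in all 12, at 4 to 10 and 5 to 14 raw counts.

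**Figure D2:**
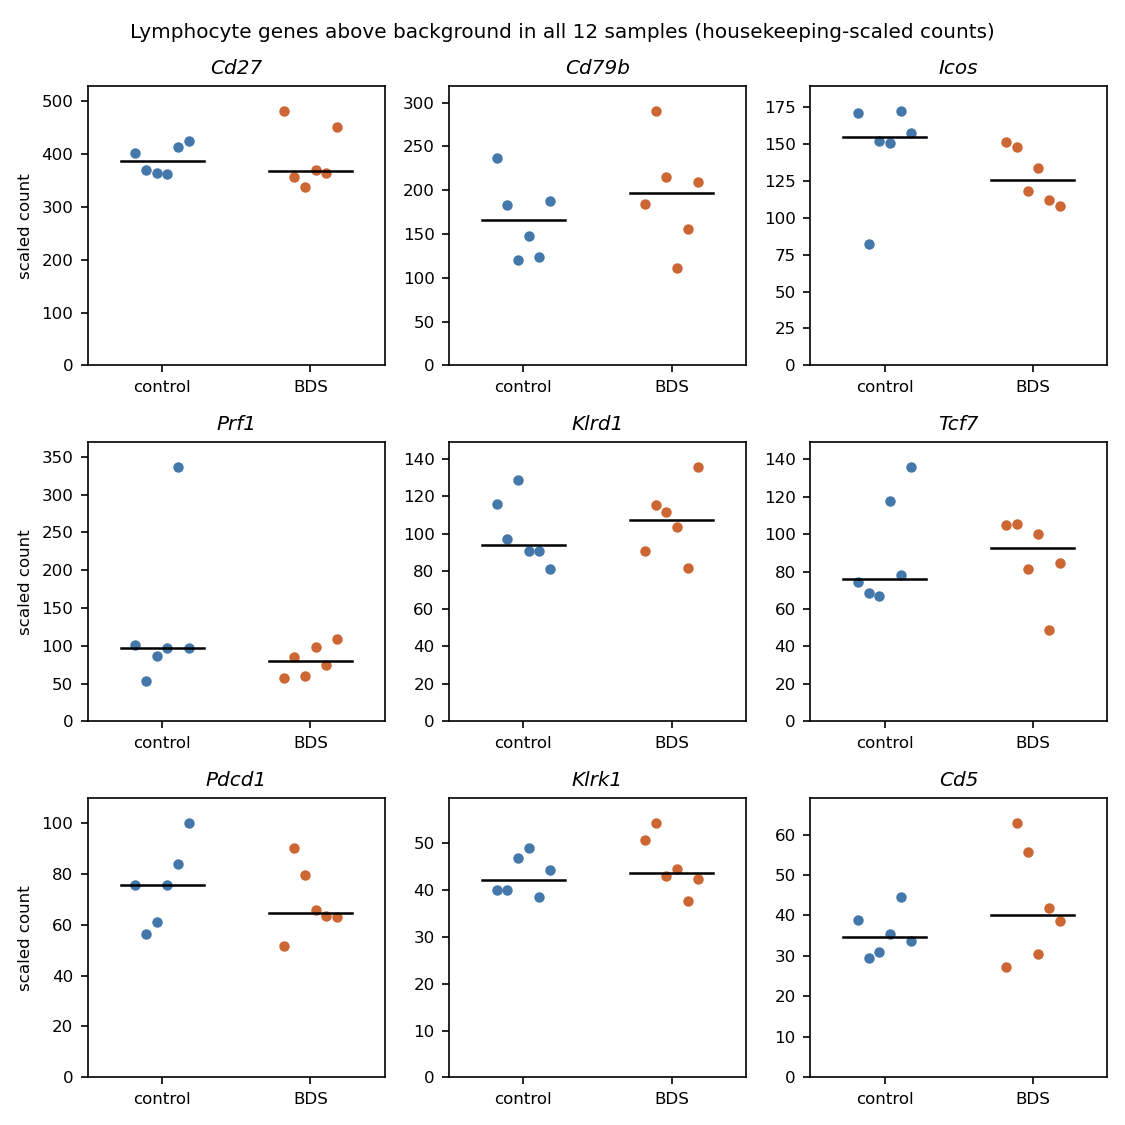
Housekeeping-scaled counts (vertical axes, from 0) of the 9 lymphocyte genes above background in all 12 samples, 1 point per sample, with a line at the group median (n = 6 per group). Control and BDS points overlap for each gene, and 1 control lies at 336.0 for Prf1.

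The number of these genes above background was lower in most BDS samples, as it was for the panel, a difference that was not tested. Per sample, 14 to 19 of the 39 were above background in controls (median 17.0) and 10 to 19 in BDS (median 12). BDS 25, BDS 55, BDS 7 and BDS 21 had the lowest numbers, at 10, 11, 12 and 12, and BDS 43 had 19. Over the whole panel the ranges were 340 to 393 genes and 298 to 358 genes. All 9 genes that were above background in 5 to 11 samples were so in more controls than BDS samples. Among the 79 panel genes of that kind, 70 (88.6%) were, so the 9 genes followed the panel. Scaled limits, which rise as the housekeeping counts fall, ran from 13.1 to 19.9 in controls and from 16.5 to 31.8 in BDS.

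BDS was compared with control by edgeR's quasi-likelihood test on housekeeping-scaled counts over all 357 panel genes above the filter. Of the 18 tested lymphocyte genes, 10 had log2 fold changes below 0 (BDS over control) and 8 above 0, where 66.1% of all tested genes were below 0. The median log2 fold change was -0.071 for the 18 and -0.10 for all tested genes. None of the 18 passed the adjusted threshold of 0.05 in edgeR (0 of 18, smallest adjusted p = 0.247, panel share 0.0%). DESeq2 with housekeeping factors gave no adjusted p for any of the 18. Its default filter on mean counts was left on, so fewer than the 357 fitted genes were adjusted, and 6 panel genes passed there. In the remaining settings none of the 18 that was tested had an adjusted p under 0.05. At an unadjusted p under 0.05 in edgeR there was 1 lower gene, Lck, and 0 higher, where 11.5% of all tested genes were lower and 0.84% higher at that level. That count is no more than the panel's background. The panel's split depends on the scaling: with TMM 14 genes were lower and 18 higher at that level, and with DESeq2's own size factors 14 and 13.

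Lck had 24.6 to 44.8 scaled counts in controls (median 36.8) and 19.1 to 32.2 in BDS (median 23.8). All 6 BDS samples lay below the control median and 3 of 6 lay below control 54, the lowest control, so the groups overlapped. The log2 fold change was -0.53 ± 0.18 (SE; edgeR, unadjusted p = 0.00925, adjusted p = 0.247). It stayed below 0 in all 23 other settings that tested it, from -1.14 with background subtracted to -0.39 with limma and a pseudocount of 10, with adjusted p from 0.123 to 0.792 where one was given. Raw means were 38.7 and 21.7 counts, a ratio of 0.560, where the median over all tested genes was 0.745. In BDS these counts were close to the limit, and BDS 25, with 12 counts, lay below it.

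Foxp3 had the largest positive log2 fold change of the 18, 0.44 ± 0.22 (SE; edgeR, unadjusted p = 0.0592, adjusted p = 0.380). Its scaled counts were 10.6 to 24.7 in controls (median 22.2) and 18.8 to 35.0 in BDS (median 27.6), with 4 of 6 BDS samples above the highest control. Before scaling both groups had a median of 21.0 raw counts, with means of 22.2 and 24.0. Over the 23 other settings that tested it, its log2 fold change ran from 0.29 to 0.60 and its unadjusted p from 0.0243 (edgeR, without BDS 7) to 0.288 (edgeR, without BDS 21, BDS 25 and BDS 55). It was also under 0.05 with TMM scaling in edgeR (0.0304), with DESeq2's own size factors (0.0422) and with limma at either pseudocount. The same held for limma on the deposited values (0.0416) and for edgeR without control 44 (0.0449). The smallest adjusted p over the 23 settings was 0.131, in edgeR without BDS 7.

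**Figure D3:**
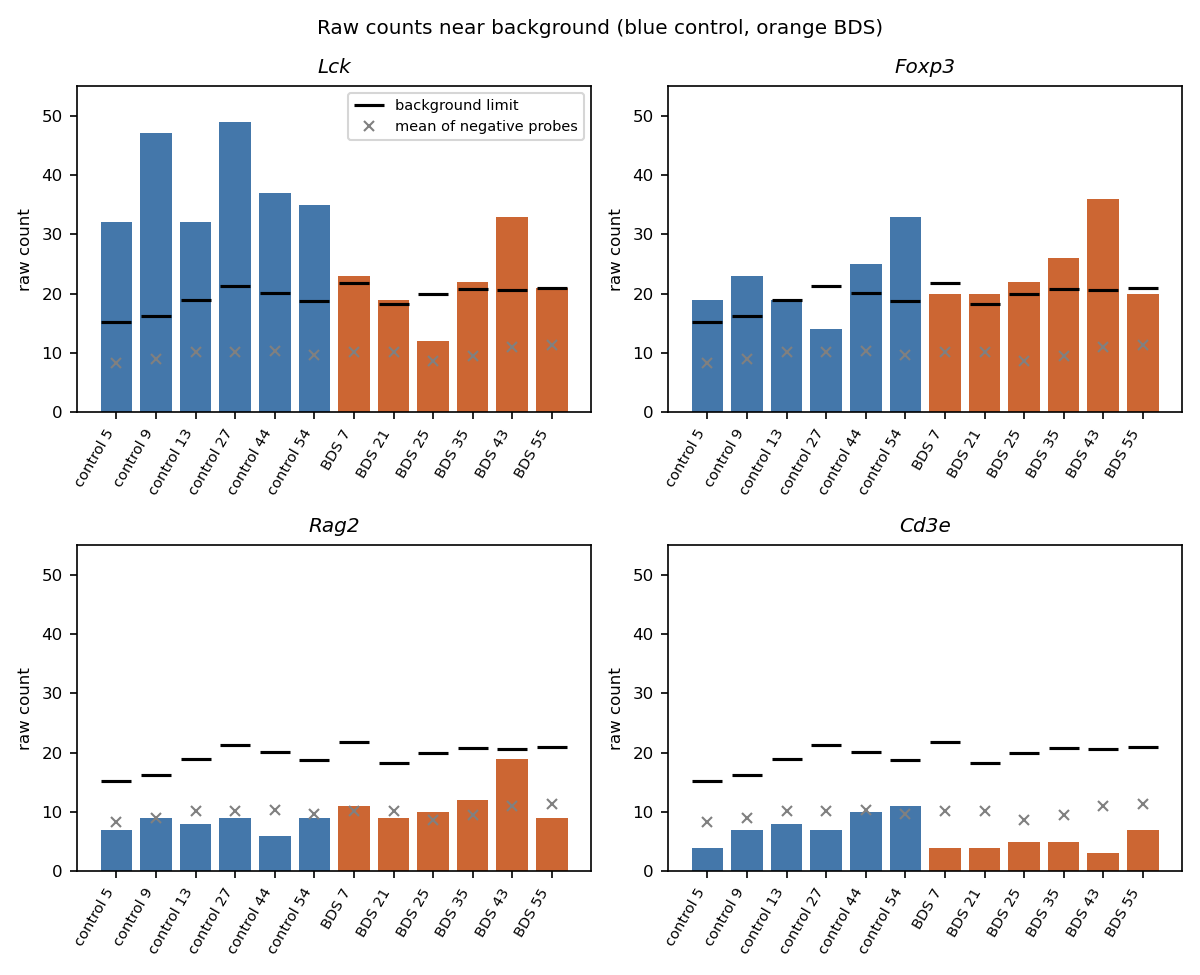
Raw counts (bars) of Lck, Foxp3, Rag2 and Cd3e in the 6 control (blue) and 6 BDS (orange) samples, with the background limit (dash) and the mean of the negative probes (cross) of each sample. Lck lies above the limit in all 6 controls and near it in BDS, Foxp3 lies near it in both groups, and Rag2 and Cd3e lie below it in all 12 samples.

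Prf1 had the lowest log2 fold change, -0.67 ± 0.37 (SE; edgeR, unadjusted p = 0.0913, adjusted p = 0.428), and it rested on a single control. Without control 44 the value was -0.11 (edgeR, unadjusted p = 0.594). Cd40lg likewise went from -0.31 to 0.43 and Cd79a from -0.16 to 0.155 without that sample. Cd5 and Cd79b, at 0.24 ± 0.21 and 0.21 ± 0.22 (SE), became -0.09 and -0.14 without BDS 21, BDS 25 and BDS 55. Cd27, Klrk1, Klrd1 and Tcf7 differed least, at 0.02 ± 0.11, 0.06 ± 0.14, 0.08 ± 0.16 and -0.06 ± 0.23, and the sign of each turned in at least 1 other setting. The other 7 genes lay between -0.21 (Gzma) and 0.29 (Tbx21). Single samples moved these values: Gzma ran from -0.34 without BDS 43 to -0.096 without BDS 55, Icos was at -0.32 without control 9 (edgeR, unadjusted p = 0.0244, adjusted p = 0.260), and Tbx21 was at 0.42 without BDS 43 (edgeR, unadjusted p = 0.0451, adjusted p = 0.303). Pdcd1 was at -0.045 without control 54, and Cd8b1 ran from 0.032 without BDS 21 to 0.22 without BDS 7. Background subtraction set values under 1 to 1, as for Gzma in BDS 25 and BDS 55, at 8 raw counts each. With background subtracted, several genes near the limit moved further below 0. Gzma was then at -1.37 (limma, unadjusted p = 0.0353, adjusted p = 0.360), Klrc2 at -0.78 (0.102 and 0.410), Cd4 at -0.70 (0.0642 and 0.388) and Cd79a at -0.45 (0.335 and 0.624).

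**Figure D4:**
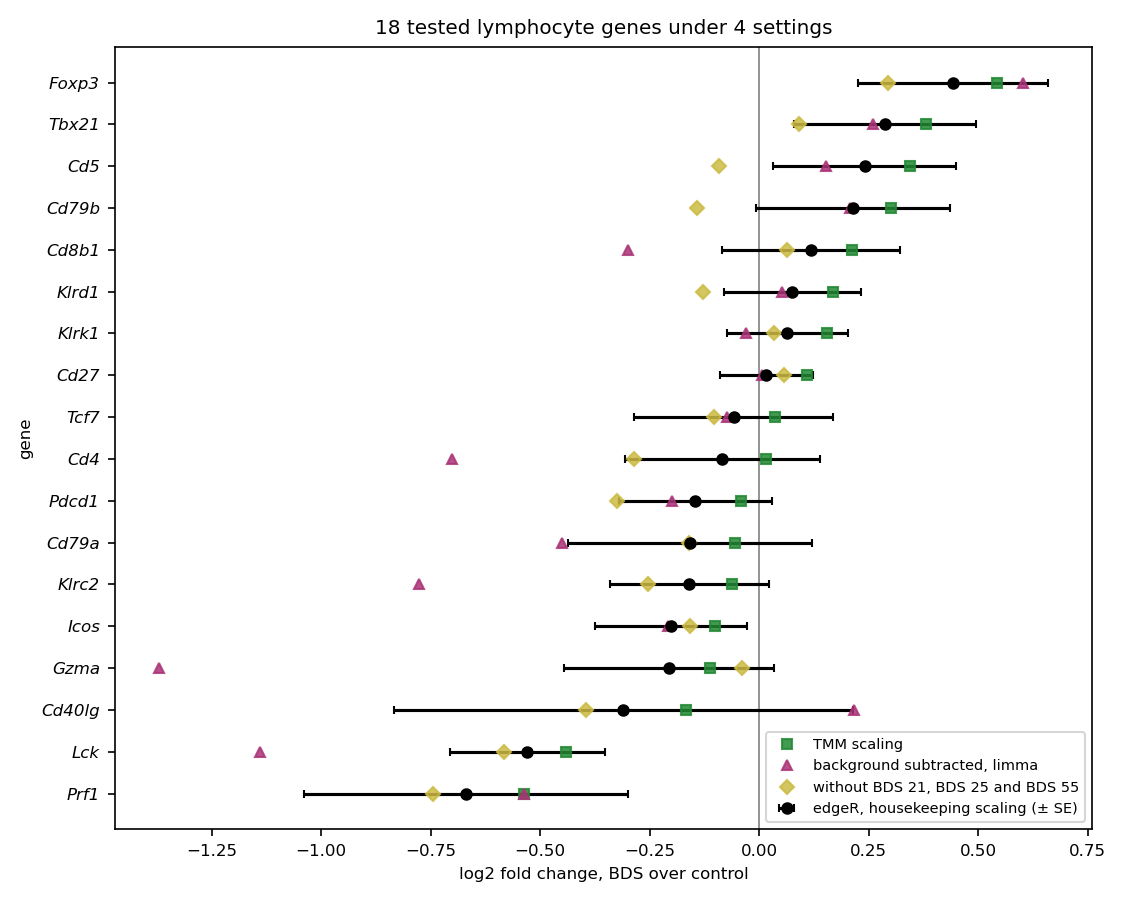
Log2 fold change (BDS over control, horizontal axis) of the 18 tested lymphocyte genes in the edgeR comparison with housekeeping scaling (black, ± SE), with TMM scaling (green), with background subtracted (purple) and without 3 BDS samples of low housekeeping counts (yellow). Lck lies below 0 and Foxp3 above 0 under all 4, while Cd5 and Cd79b change sign without the 3 samples.

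Control 44 stood apart from the other controls in several of these genes. Its Prf1 was 336.0 scaled counts, 3.48 times the median of the other 5 controls, which ran from 53.4 to 101.5. Its Cd40lg was 123.5, 5.23 times the median of the others (9.99 to 37.8), and its Cd79a was 52.4, 2.61 times theirs (15.1 to 31.5). Klrd1 and Klrk1, at 90.9 and 38.5, were within or just below the range of the other controls, and its Cd3d and Cd3e counts were 10 and 10, under the limit. Of the 357 tested genes, 24 (6.72%) reached 2 times the median of the other 5 controls in this sample, the highest number of any sample, and 0 to 13 did so in the other 11. Among the 24 were Ccl3 and Ccl4, chemokines of activated myeloid cells, at 5.70 and 6.78 times, Nfkbia at 4.48 times and Tnf at 3.63 times. Gpr44, a prostaglandin D2 receptor, was among them at 10.2 times. Tigit, an inhibitory receptor of T and NK cells, was at 3.14 times, and Cd160, a receptor of NK cells, at 2.53 times. The genes named here were picked by hand from the 24 and do not stand for all of them. Tigit in control 44, at 47.4 scaled counts, lay within its BDS range of 22.3 to 51.7. Gpr44 and Cd160, at 510 and 236, lay above their BDS ranges of 22.3 to 120 and 68.4 to 135. S100a9, a neutrophil marker, had 97.8 scaled counts in control 44 and 5.72 to 9.83 in the other controls. S100a8, another neutrophil marker, had 25.7 in control 44, 5.9 to 19.1 in the other controls and 10.3 to 33.4 in BDS. Camp and Cxcr2, neutrophil markers below background in all 12 samples, were at 8.89 each in control 44. Of 4 neutrophil markers on the panel 1, S100a8, was above background in at least 5 samples. Summed scaled counts of the 4 were 23.6 to 141.3 in controls and 31.9 to 70.04 in BDS. The part of these genes in the Prf1, Cd40lg and Cd79a values was not tested.

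**Figure D5:**
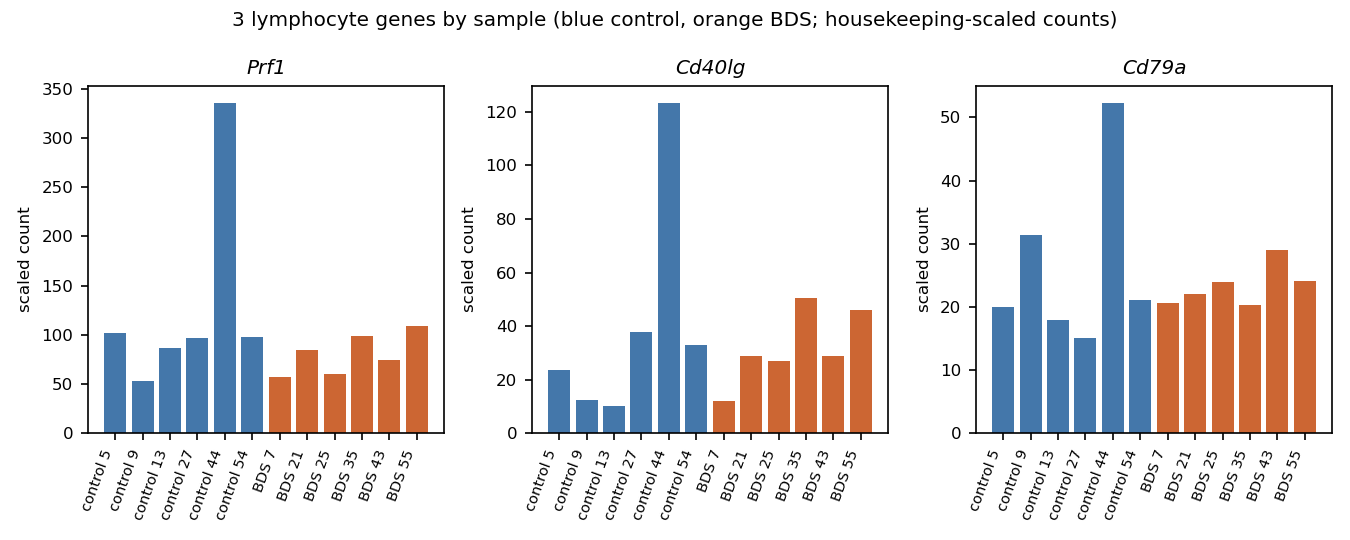
Housekeeping-scaled counts (vertical axes, from 0) of Prf1, Cd40lg and Cd79a in each of the 6 control (blue) and 6 BDS (orange) samples. Control 44 is the highest bar in each panel, at 336.0, 123.5 and 52.4.

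BDS 43 had 3 of the 21 genes under the filter above background, Cd2, Cd8a and Ctla4. The other 5 BDS samples had 0, and the controls had 0 to 2 each, 7 values in all. Ctla4 was also above background in control 5, and Cd6 was above it in control 9 and control 54 but not in BDS 43. Cd8b1, Gzma, Cd79a and Foxp3 were above it too, at 28, 28, 36 and 36 raw counts, while Cd3d and Cd3e were at 5 and 3 counts. This sample had the highest total count of the BDS group, 1171355, and a scaled limit of 16.5, the lowest of that group.

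The negative probes averaged 8.25 to 10.4 raw counts in controls and 8.62 to 11.4 in BDS. After division by the housekeeping factors these became 6.76 to 10.3 and 8.84 to 17.4, highest in BDS 21, BDS 55 and BDS 25. For the 15 lymphocyte genes above background in 0 samples, the median ratio of BDS to control means was 0.912 in raw counts and 1.18 in scaled counts, with 5 of 15 above 1 in raw and 11 of 15 in scaled counts. The other 105 panel genes of that kind had 0.90 and 1.17, and the 8 negative probes 1.01 and 1.33. The 18 tested genes had 0.749 and 0.957.

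Rag2 belongs to those 15 genes. In the authors' deposited table it carries the smallest p of all 545 genes, 0.000267, with a fold of 1.84 and 0% of samples above background. Over all 545 genes 49 had a deposited p under 0.05. Rag2 is 1 of the 10 such genes among the 181 that the authors' deposited table lists as not present. Here its raw counts were 6 to 9 in controls and 9 to 19 in BDS, with limits of 15.3 or more. The ratio of means was 1.46 in raw and 1.82 in scaled counts, and the highest ratios of any negative probe were 1.36 and 1.69. Without a filter edgeR gave Rag2 a log2 fold change of 0.85 ± 0.21 (SE; unadjusted p = 0.00126, adjusted p = 0.229 over 545 genes). Pax5 and Cd8a were the other filtered genes at an unadjusted p under 0.05 in that fit, at 0.54 and 0.59.

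The authors' deposited table lists the same 18 lymphocyte genes as present. Of these, Lck has a deposited p of 0.0103 with a fold of 0.70, and Foxp3 a deposited p of 0.0354 with a fold of 1.39, in the authors' deposited table. These values come from the same 12 samples and are no independent support.

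A separate list of 68 further lymphocyte genes, some of them also expressed by myeloid cells, had 59 on the panel and 24 above the filter. Of these 24, 1 was lower and 1 higher in BDS at an unadjusted p under 0.05 in edgeR, against 11.5% and 0.84% of all tested genes. None passed the adjusted threshold, and the median log2 fold change was -0.11. The lower gene was Il21r, the interleukin-21 receptor, at 2065 to 2528 scaled counts in controls and 1387 to 2014 in BDS, which did not overlap (log2 fold change -0.41 ± 0.10, SE; edgeR, adjusted p = 0.167). By comparison 1.12% of all tested genes lay with all 6 BDS samples below the lowest control. The higher gene was Tnfrsf13b, a receptor of B cells for survival factors, at 24.2 to 30.5 and 22.3 to 66.2 (log2 fold change 0.59 ± 0.23, SE; edgeR, adjusted p = 0.289). The highest mean counts of that list belonged to Il7r, the interleukin-7 receptor chain, at 4835 to 5923 in controls and 4311 to 5415 in BDS, to Blnk, an adaptor of B cell receptor signalling, at 2978 to 3402 and 2985 to 4128, and to Ikzf1, a transcription factor of blood cell lineages, at 1992 to 3028 and 2244 to 2779. In that list 25 of the 59 genes on the panel were above background in 0 of 12 samples and 17 in all 12. The shares of all panel genes were 22.0% and 51.0%.

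Markers of other cell types were read in the same way. Of 3 blood monocyte and border macrophage markers on the panel, Ccr2 was above background in all 12 samples and Cd163 and Marco in 0, with summed scaled counts of 299.4 to 512.6 in controls and 261.2 to 465.1 in BDS. Both endothelial markers, Cdh5 and Pecam1, were above it in all 12 samples, with sums of 974.0 to 1377 and 944.4 to 1328. The markers of astrocytes, neurons and oligodendrocytes, 2 on the panel, summed to 127.5 to 251.4 and 117.2 to 189.5. The part of these cell types in the lymphocyte gene values was not tested.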

How the data were processed

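Raw barcode counts were deposited by the authors for 573 probes in 12 samples, made per the labels' protocols from 2 ng of RNA amplified in 5 PCR rounds. The authors' second deposited table gives normalized values (scores), the percent of samples above background, a fold (ratio) and a p-value. No reader software is named in the sources used here.

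Columns were matched to samples by title. For scaling, each sample's counts were divided by a factor from 6 housekeeping genes (Tbp, Sdha, Polr1b, Oaz1, Gapdh and Alas1), their geometric mean over its average across samples. Genes over the background limit (negative-probe mean plus 2 SD) in at least 5 of 12 samples (40%) were tested with edgeR 4.0.16 (R 4.3.3), with Benjamini-Hochberg adjustment over 357 genes. The SE is the log2 fold change divided by the root of F. Alternatives were TMM, other housekeeping sets, DESeq2 1.42.0, limma 3.58.1 on log2 values with pseudocounts of 1 or 10, background subtraction, the deposited values, other filters and limits, and leaving out samples. The test was checked on simulated data. Every listed gene with a probe was named; of the further lymphocyte genes, those at an unadjusted p under 0.05 and the 3 with the highest mean were named. Members and lists were chosen with earlier results of these data known. Accessions of 39 genes matched the RefSeq table, used for gene order only. Amplified counts are not independent molecules, so counting errors are lower limits of the error.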

Additional observations from a re-analysis of the deposited data

Results flagged for a closer look

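In 4 of 38 combinations of value and group, 1 sample lay far from the other 5, where chance does so in about 1 of 20 groups. Control 44 was highest in Prf1 (336.0 scaled counts) and in Cd40lg (123.5). Control 27 was highest in Klrc2 (32.5), and control 9 was lowest in Icos (82.0).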

How the results depend on the processing

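No paired analysis was possible because control and BDS share no replicate number in the labels. Of 18 lymphocyte genes, the count above the filter was 12 with a limit at the mean plus 3 SD, 14 with a pooled limit and 17 to 18 with 1 sample left out. The count at an unadjusted p under 0.05 was 1 (Lck). It was 2 with TMM scaling, with limma at either pseudocount and with the deposited values (Foxp3 added), 2 with background subtracted (Gzma added), 4 with no filter, 0 among genes above the limit in all 12 samples, where Lck is not tested, and 1 to 3 with 1 sample left out, the 3 without control 9 (Icos and Prf1 added). For all 357 genes it was 44 (41 lower, 3 higher), 32 with TMM (14 lower, 18 higher), 27 with DESeq2's own factors (where Foxp3 and not Lck was the lymphocyte gene), 20 without BDS 21, BDS 25 and BDS 55, and 26 to 95 with 1 sample left out (95 without BDS 7, 26 without BDS 25 or BDS 55). At an unadjusted p under 0.05 the panel had 50 of 357 genes in limma at either pseudocount and 40 with the deposited values. It had 43 of 357 with background subtracted, 51 of 545 with no filter and 43 of 278 above the limit in all 12 samples. Without control 9 it had 55 of 347. The 4 lymphocyte genes with no filter were of 39, and the 3 without control 9 were of 17. Genes past the adjusted threshold were 0, but 6 in DESeq2 with housekeeping factors and 0 to 4 with 1 sample left out (4 without BDS 7). The median over all tested genes moved from -0.10 to -0.0093 with TMM.

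Log2 fold changes turned in 25 of 418 values, and 8 genes kept their sign throughout. With TMM, Cd4 was 0.014 and Tcf7 0.036, and with DESeq2's own factors 0.0069 and 0.029. Cd40lg was 0.072 and 0.0055 in limma with pseudocounts of 1 and 10, 0.22 with background subtracted and 0.11 on the deposited values. With background subtracted Cd8b1 was -0.30 and Klrk1 -0.030. Without BDS 21, BDS 25 and BDS 55, Cd5 was -0.092, Cd79b -0.14 and Klrd1 -0.13. With 1 sample left out, Cd4 ran from -0.18 to 0.057, Cd27 from -0.050 to 0.056, Tcf7 from -0.13 to 0.098, Cd79a from -0.285 to 0.155, Cd40lg from -0.51 to 0.43 and Klrd1 from -0.0067 to 0.16. The causes were not tested. Counting error alone gives the 18 genes coefficients of variation of 4.89% (Cd27, controls) to 26.9% (Gzma, BDS).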
